A study of Homo sapiens with 6 samples.

Results

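The genes described here encode the enzymes of lower glycolysis, from aldolase, which splits fructose bisphosphate into triose phosphates, to pyruvate kinase, which makes pyruvate. They are ALDOA, ALDOC, TPI1, GAPDH, PGK1, PGAM1, ENO1, ENO2 and PKM, taken by name as 9 of the 21776 genes in a count table of hypoxic and normoxic cancer cells. All 9 were expressed above the filter on low counts.

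The table came from RNA sequencing of a wild-type oral squamous cell carcinoma line, with 3 hypoxia and 3 normoxia libraries. Hypoxia libraries came from cells kept at 1% O2 for 12 h in a tri-gas incubator, and normoxia libraries from cells kept for 12 h in an ordinary air incubator, all in the same serum-containing medium. The sample labels name the line SCC25, whereas SCC9, another oral squamous cell carcinoma line, is named in the published legend. The labels do not say whether the libraries came from separate cultures, so the p-values measure the spread between these libraries, which may be technical. Total counts were 30186813, 36076088 and 32272716 for replicates 1, 2 and 3 of hypoxia, and 37278703, 29637189 and 29981208 for those of normoxia.

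Lower glycolysis is the part of the pathway that returns energy: glyceraldehyde phosphate is oxidised with reduction of NAD+, and phosphoglycerate kinase and pyruvate kinase then pass phosphate to ADP. In low oxygen the hypoxia-inducible factors (HIF) are no longer marked for destruction, enter the nucleus and bind a short DNA core in many glycolysis genes. Several steps can be made by more than one gene, and ALDOC and ENO2 are the aldolase and enolase forms best known from brain.

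Before the values, the sequences around annotated starts of these genes show where the core to which HIF binds is spelled out. The letters searched were ACGTG and GCGTG on both strands, in RefSeq promoter windows (GRCh38.p14) from 250 bases before to 50 bases after an annotated start. The palindrome CACGTG reads as ACGTG on both strands and was counted as 1 separate match. Among all 35116 windows, 48.4% held at least 1 such match, and 7.61% held 3 or more. Of the 12 windows of the 9 genes, 10 held at least 1 match, and 8 of the 9 genes had such a window. ALDOC and PGK1 had 4 separate matches each, ENO1 had 2, and 1 of the 2 TPI1 windows had 2. The single PGAM1 window had 0, which says only that these letters are not in this window. It lay 1627 bases inside the RefSeq gene, as the GAPDH window lay 747 bases inside and the PKM window 401 bases inside. The stretches below were chosen because they hold matches of the genes with larger changes, beside ENO1 with the smallest. Those of ALDOC, ENO2 and ENO1 overlapped GENCODE exons of their own genes, so they are not all upstream of every transcript. The ALDOA stretch overlapped an exon of AC093512.2, and the first ENO1 stretch also one of ENO1-AS1. All stretches are written 5′ to 3′ on the strand of the gene, with each match in capitals.
ALDOC, minus strand, chr17:28577116-28577145: aagtgcccggCACGTGgtaaagggattgtg
ALDOC, minus strand, chr17:28576986-28577015: ccgcctctgaggGCGTGgtcttgccccgga
ALDOC, minus strand, chr17:28576916-28576945: caggcCACGCccccggaggagtCACGTagc
ENO2, plus strand, chr12:6914449-6914478: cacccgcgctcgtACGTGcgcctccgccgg
ALDOA, plus strand, chr16:30064089-30064118: ccttcccctccaCACGTcaacgattctatt
PGK1, plus strand, chrX:78104028-78104077: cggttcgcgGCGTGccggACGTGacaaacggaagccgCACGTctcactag
GAPDH, plus strand, chr12:6535171-6535200: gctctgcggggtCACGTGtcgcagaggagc
ENO1, minus strand, chr1:8878836-8878865: tcacccccctttcCACGCtactgcagccgt
ENO1, minus strand, chr1:8878742-8878771: cggagctgaggggGCGTGccccggaggcgg

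The ENO1 window, in the gene with the smallest change, thus held more separate matches than that of ENO2, which had 1, and CACGTG stood in the windows of ALDOC, GAPDH and the second of 3 for ALDOA. CACGTG was present in 7.26% of all windows. A match is a description of the letters, and binding was not measured in these libraries.

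**Figure D1:**
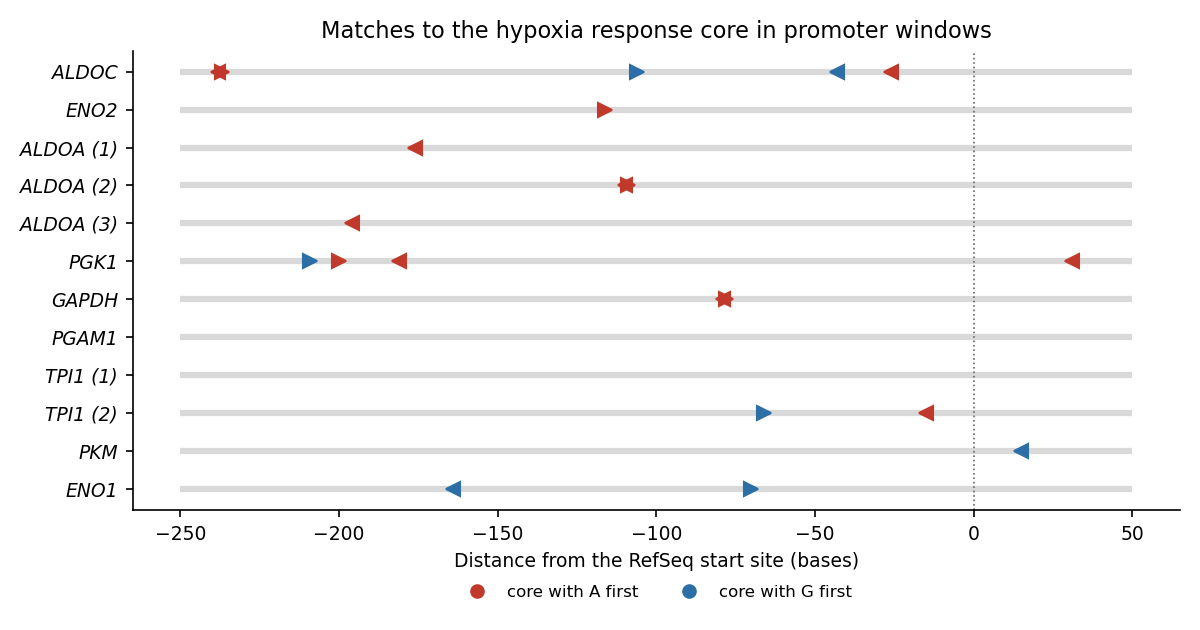
Positions of matches to the hypoxia response core in the 12 promoter windows, in bases from the RefSeq start (dotted line); triangles point in the direction of the strand, red for the core that begins with A and blue for the core that begins with G, and a palindrome appears as overlaid triangles. Matches are most numerous in ALDOC and PGK1, with 4 each, and absent from PGAM1 and the first TPI1 window.

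Every one of the 9 genes was higher under hypoxia, by 1.09-fold for ENO1 to 5.09-fold for ALDOC, and the 2 brain-type isozyme genes ALDOC and ENO2 moved most. Changes were tested with edgeR's quasi-likelihood test on the counts, with adjustment over all 14255 genes that passed the filter. All 9 were called higher at an adjusted p under 0.05, where 39.2% of all tested genes were called higher, 38.5% lower and 77.8% in either direction. The median log2-fold change of the 9 was 0.46, and that of all tested genes was 0.023. Because replicates lay close together (biological coefficient of variation 0.0685), small changes passed the threshold, and only ALDOC and ENO2 exceeded a log2-fold change of 1, as 19.9% of all genes did. In CPM (counts scaled to a common library size, after TMM normalisation), every hypoxia library was above every normoxia library for 8 of the 9, with ENO1 the exception, against 40.6% of all tested genes (80.5% had no overlap in either direction). In bulk libraries, more expressing cells and more RNA per cell cannot be told apart.

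**Figure D2:**
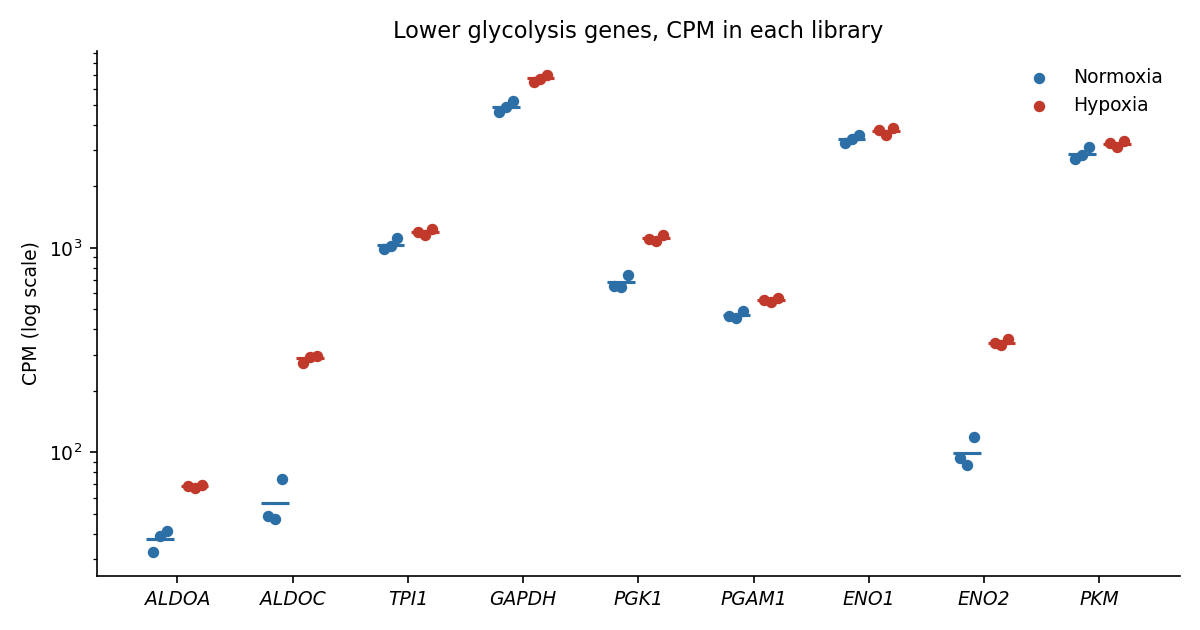
CPM on a log scale of each lower glycolysis gene in each library, with a line at the mean of the 3 libraries of a condition (blue normoxia, red hypoxia). ALDOC and ENO2 are widely separated, whereas the points of ENO1 overlap between the conditions.

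Aldolase is made from ALDOA (Entrez 226, chromosome 16), the muscle-type and most widespread form, and from ALDOC (Entrez 230, chromosome 17). Replicates 1 to 3 of hypoxia held ALDOC at 274, 293 and 297 CPM, and those of normoxia at 48.7, 47.3 and 74.0 CPM. The order of replicates 1 to 3 is kept for the other genes. The conditions were far apart, although normoxia replicate 3 was above the other normoxia libraries. The means were 288 ± 12.3 and 56.6 ± 15.04 CPM (SD, n = 3 each), a log2-fold change of 2.35 (SE 0.12, adjusted p = 8.32e-12 by edgeR). On the signed scale, this was above the log2-fold change of 93.7% of all tested genes.

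ALDOA was counted at 68.7, 67.3 and 69.6 CPM under hypoxia and at 32.7, 39.1 and 41.1 CPM under normoxia. The hypoxia libraries were nearly equal, and all stood well above normoxia. Its log2-fold change was 0.87 (SE 0.074, adjusted p = 8.87e-09 by edgeR), or 1.82-fold. The level of ALDOA is uncertain in this table: the RefSeq gene LOC112694756 spans 6136 bases, or 99.9%, of the ALDOA gene and has a row of its own. That row held 119, 142 and 157 counts under hypoxia and 146, 92 and 123 under normoxia. Reads in the shared span could have been assigned to either gene, to both or to neither, and their part in the ALDOA level was not tested. With the counts of both rows added, the log2-fold change of ALDOA was 0.81.

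TPI1 (Entrez 7167, chromosome 12) encodes triosephosphate isomerase, which interconverts the triose phosphates released by aldolase. It stood at 1199.5, 1159.8 and 1239 CPM under hypoxia and at 987, 1017 and 1112 CPM under normoxia. The highest normoxia library came close to the lowest hypoxia library without reaching it. The log2-fold change was 0.21 (SE 0.055, adjusted p = 0.00237 by edgeR), a rise of 1.15-fold.

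GAPDH (Entrez 2597, chromosome 12) encodes the dehydrogenase that reduces NAD+, and its mRNA is often used as a reference in quantitative PCR. Hypoxia libraries held it at 6506, 6668 and 7033 CPM, and normoxia libraries at 4596, 4889.6 and 5198 CPM. No normoxia library approached the hypoxia libraries. The increase was 1.38-fold, a log2-fold change of 0.46 (SE 0.056, adjusted p = 8.51e-07 by edgeR).

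PGK1 (Entrez 5230, X chromosome) encodes phosphoglycerate kinase, the first enzyme of the pathway to return ATP. It was measured at 1108, 1077 and 1161 CPM in the hypoxia libraries and at 654, 646 and 734 CPM in the normoxia libraries. The groups were clearly separated, and the log2-fold change was 0.72 (SE 0.057, adjusted p = 3.37e-09 by edgeR), or 1.65-fold.

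PGAM1 (Entrez 5223, chromosome 10) encodes phosphoglycerate mutase, which moves the phosphate within phosphoglycerate. The gene was measured at 556, 543 and 571 CPM under hypoxia and at 465, 457 and 492 CPM under normoxia. Its groups did not overlap, and the change was modest, at a log2-fold change of 0.24 (SE 0.051, adjusted p = 0.000349 by edgeR). PGAM4, a near-identical copy of PGAM1 on the X chromosome, had 60 to 104 counts per library, and adding them left the log2-fold change of PGAM1 at 0.24.

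Enolase makes phosphoenolpyruvate and is encoded mainly by ENO1 (Entrez 2023, chromosome 1) and ENO2 (Entrez 2026, chromosome 12). ENO2 rose strongly, from 94.3, 86.7 and 118 CPM in the normoxia libraries to 341, 335 and 357 CPM in the hypoxia libraries. The lowest hypoxia library was far above the highest normoxia library, and the log2-fold change was 1.79 (SE 0.084, adjusted p = 3.84e-12 by edgeR), or 3.45-fold. The RefSeq noncoding gene LOC124902868 shares 1168 bases, or 12.8%, of the ENO2 gene and has no row of its own. The part of its reads in the ENO2 level was not tested. ENO1 was at 3759, 3555 and 3855 CPM under hypoxia and at 3271, 3406 and 3571 CPM under normoxia. Here the groups overlapped, since normoxia replicate 3 was above hypoxia replicate 2. The log2-fold change of ENO1 was 0.12 (SE 0.053, adjusted p = 0.0428 by edgeR), a call that was lost without any filter on low counts (adjusted p = 0.143) and when any one of hypoxia replicate 1 or 3 or normoxia replicate 1 or 2 was left out (adjusted p from 0.0788 to 0.208).

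PKM (Entrez 5315, chromosome 15) encodes pyruvate kinase of muscle and most other tissues, in splice forms that a table of whole genes does not separate. It was at 3265, 3122.5 and 3315 CPM under hypoxia and at 2718, 2833 and 3117 CPM under normoxia. Normoxia replicate 3 was almost level with hypoxia replicate 2. The log2-fold change of 0.16 (SE 0.057, adjusted p = 0.0149 by edgeR) did not pass when hypoxia replicate 1, hypoxia replicate 3 or normoxia replicate 1 was left out (adjusted p of 0.0603, 0.0762 and 0.105).

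Hypoxia replicate 3 and normoxia replicate 3 were the highest of their condition in CPM for all 9 genes. Among all tested genes, hypoxia replicate 3 was highest for 31.4% and normoxia replicate 3 for 37.2%. Without normoxia replicate 3, all 9 genes were still called higher, and without hypoxia replicate 3, 7 of the 9 were, with ENO1 and PKM not called.

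The sizes of the change were next compared between genes adjacent in the order of fold change, by the log2 ratio of the pair in each library. Of the 8 adjacent pairs, 5 had ratios that did not overlap between the conditions. These were ALDOC over ENO2, ENO2 over ALDOA, PGK1 over GAPDH, GAPDH over PGAM1, and TPI1 over PKM. ALDOC exceeded ENO2 by 0.58 and ENO2 exceeded ALDOA by 0.93 on the log2 scale. PGK1 exceeded GAPDH by 0.26, GAPDH exceeded PGAM1 by 0.22 and TPI1 exceeded PKM by 0.045. Each of the 5 had a two-sided exact permutation p of 0.1, the smallest that 3 against 3 libraries allow. No such difference can therefore pass 0.05 by this permutation test, and no other test was run on these ratios. ALDOA and PGK1, PGAM1 and TPI1, and PKM and ENO1 had overlapping ratios (exact permutation p of 0.2, 0.4 and 0.3).

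Per length of the gene, GAPDH mRNA was by far the most abundant and ALDOA the least as counted here, and hypoxia changed the order at 1 place. The place of ALDOA carries the uncertainty of its level, given the overlap with LOC112694756. Levels were compared in the deposited FPKM (fragments per kilobase of gene, scaled to the library total), since longer genes collect more reads. In normoxia the mean FPKM were 2780.2 for GAPDH, 1063 for ENO1, 847 for PKM, 547 for TPI1, 242 for PGAM1, 139 for PGK1, 42.8 for ENO2, 32.1 for ALDOC and 17.2 for ALDOA. ENO2 and ALDOC overlapped between libraries, and the other neighbours in this order did not. Under hypoxia the means were 3953 for GAPDH, 1196 for ENO1, 979 for PKM, 653 for TPI1, 295 for PGAM1, 235 for PGK1, 168 for ALDOC, 152 for ENO2 and 32.3 for ALDOA, with no overlap between neighbours. ALDOC thus passed ENO2, at 159.6, 173.7 and 172.0 FPKM against 150.4, 150.5 and 156.5.

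GAPDH was the gene with the 10th highest mean FPKM of the table in both conditions, and ENO1 the 46th and PKM the 65th in both. ALDOC moved from rank 2008 to rank 314, ENO2 from 1510 to 343 and PGK1 from 414 to 216. On log2(FPKM + 1), limma called all 9 higher, where 36.7% of the 10976 genes that averaged 1 FPKM or more were called higher. In FPKM, every hypoxia library was above every normoxia library for all 9, ENO1 included, against 38.0% of those genes. FPKM were scaled to the total count of a library and CPM to its TMM-adjusted total. The ENO1 change was 0.17 on the log2(FPKM + 1) scale (SE 0.045, adjusted p = 0.00466 by limma).

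At the aldolase and enolase steps, the brain-type forms made up a larger share of the mRNA in every hypoxia library than in any normoxia library. ENO2 made up 11.1%, 11.5% and 11.3% of the summed FPKM of ENO1, ENO2 and ENO3 in the hypoxia libraries, and 3.82%, 3.39% and 4.36% in the normoxia libraries. Enolase mRNA therefore remained mostly ENO1 in every library, with a sum of 1352 ± 36.3 FPKM under hypoxia and 1107 ± 52.8 under normoxia (SD, n = 3 each). The log2 ratio of ENO2 to ENO1 was higher by 1.67 under hypoxia, and that of ALDOC to ALDOA by 1.51, with no overlap in either (two-sided exact permutation p = 0.1, the smallest possible).

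At the aldolase step ALDOC was the larger share in all 6 libraries, at 83.2%, 84.3% and 84.1% of the sum of ALDOA and ALDOC under hypoxia and 64.9%, 59.9% and 69.0% under normoxia. Aldolase mRNA summed over both genes was 201 ± 7.75 FPKM under hypoxia and 49.3 ± 10.1 FPKM under normoxia (SD, n = 3 each), 4.07 times as much as counted here. The shares, the sum and its fold, and the ratio of ALDOC to ALDOA all carry the uncertainty of the ALDOA level.

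**Figure D3:**
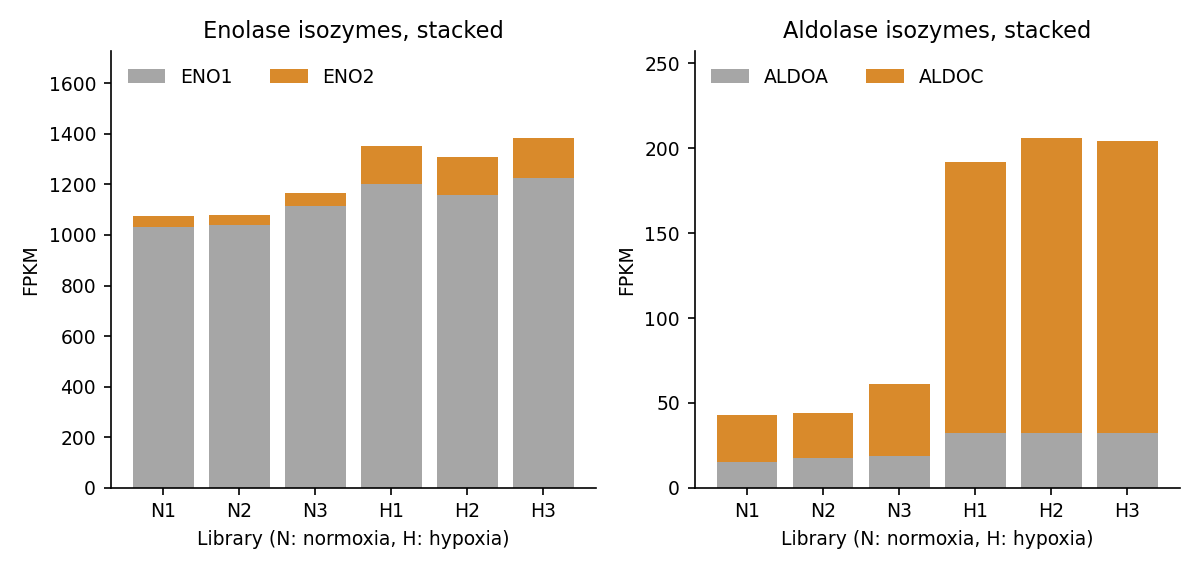
FPKM of the enolase genes ENO1 and ENO2 (left) and the aldolase genes ALDOA and ALDOC (right), stacked in each normoxia (N) and hypoxia (H) library. The ENO1 block dominates every library on the left, whereas on the right the ALDOC block grows under hypoxia.

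Summed over the pathway, the 9 genes took a larger part of the library under hypoxia. Their share of all counts was 1.73%, 1.73% and 1.80% in the hypoxia libraries and 1.28%, 1.30% and 1.43% in the normoxia libraries. The groups did not overlap, and the means differed by 0.42 percentage points (two-sided exact permutation p = 0.1, the smallest possible). GAPDH alone gave 0.684% and 0.481% of counts on average, and the other 8 genes 1.07% and 0.854%. The shares that include ALDOA carry the uncertainty of its level.

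The remaining genes for these steps were weakly expressed. Of 9 listed isozyme or side-branch genes, 5 could be tested, and 3 were called higher and 1 lower. Beside this list and those that follow, the shares over all tested genes were 39.2% called higher and 38.5% lower. ENO3, the muscle enolase, had 189, 247 and 203 counts under hypoxia and 102, 35 and 108 under normoxia, a log2-fold change of 1.32 (SE 0.25, adjusted p = 0.000118 by edgeR). PGAM2, the muscle mutase, rose from 0, 5 and 3 counts to 26, 20 and 17. BPGM, whose enzyme makes the bisphosphoglycerate of red cells, was lower by a log2-fold change of -0.35 (adjusted p = 0.0201 by edgeR), a call lost in some alternatives. PKLR, the liver and red-cell pyruvate kinase gene, and GAPDHS, the sperm form of GAPDH, had at most 4 counts in any library.

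Upstream of aldolase, 7 of 8 tested genes of glucose uptake and upper glycolysis were called higher and 0 lower, with a median log2-fold change of 0.96. HK2, a hexokinase gene, stood at 883, 1083 and 1034 CPM under hypoxia and 139.9, 127 and 141 CPM under normoxia, a log2-fold change of 2.88. SLC2A3, a glucose transporter gene, had the largest change of the list at 5.10, from 3, 2 and 15 counts in normoxia. Without normoxia replicate 3, its log2-fold change was 6.52, and without normoxia replicate 1 it was 4.63. GPI, the isomerase of glucose phosphate, was the gene of the list with the most counts and rose by 1.11 on the log2 scale. PFKM, 1 of 3 phosphofructokinase genes, had a log2-fold change of -0.098 and was not called (adjusted p = 0.142 by edgeR), although it was called lower without normoxia replicate 3 (-0.16) and without a filter (-0.14).

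Genes acting on pyruvate and lactate split, with 3 of 5 tested genes higher and 2 lower, at a median of 0.47. LDHA, the lactate dehydrogenase subunit that favours lactate formation, rose from 2349, 2383 and 2694 CPM to 3384, 3304 and 3577 CPM, a log2-fold change of 0.47. Its partner subunit gene LDHB fell by 0.50 on the log2 scale (adjusted p = 1.01e-06 by edgeR). PDK1, whose kinase shuts pyruvate dehydrogenase, had the largest increase at 1.80, and SLC16A1, a lactate transporter gene, the largest decrease at -0.65. The changes in lower glycolysis ran from 0.12 to 2.35, and unlike the genes after pyruvate none was lower. Those upstream ran from -0.098 to 5.10, but the upper end was SLC2A3 alone, with 3, 2 and 15 counts in normoxia. HK2 came next upstream, at 2.88. Differences between the lists were not tested.

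Branches from the triose phosphates did not move in one direction. Of 8 tested genes, 2 were higher and 4 lower, with a median of -0.20. TKFC, a triose kinase gene, rose by 0.80 on the log2 scale, whereas GPD1L, related to glycerol phosphate dehydrogenase, fell by 1.03 and GLO1, which clears methylglyoxal, fell by 0.35. Among 3 tested gluconeogenesis genes, PC, the pyruvate carboxylase gene, rose by 1.11 and PCK2, the mitochondrial carboxykinase gene, by 0.19. FBP1, the bisphosphatase gene, fell by 0.30. The calls of PCK2 and FBP1 did not hold in every alternative processing.

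Splicing of PKM to its embryonic or its muscle form is set by RNA-binding proteins, and 4 of 6 listed genes for them or for their partners were lower, with 1 higher. HNRNPA2B1, with the most counts of the list, fell from 2060.2, 2148 and 2164 CPM to 1206, 1081 and 1185 CPM, a log2-fold change of -0.88 (adjusted p = 1.17e-10 by edgeR). PTBP1 fell by 0.86 on the log2 scale, with 333, 329 and 330.04 CPM under hypoxia and 608, 629 and 557 under normoxia. HNRNPA1 was at -0.10 and was not called (adjusted p = 0.0595 by edgeR), although it was called lower by the DESeq2 Wald test (-0.10, adjusted p = 0.0368), without a filter (-0.15) and without normoxia replicate 1 (-0.13). RBM4 rose by 0.31. Splice forms of PKM were not measured.

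Against 17 genes that are commonly used as references in quantitative PCR, GAPDH had a higher log2-fold change than most. Of those 17, 6 were called higher, 8 lower and 3 were not called, with a median log2-fold change of -0.078 and the largest increase, 0.60, in RPL13A. EEF1A1, the most counted, was at 0.57, and ACTB was at 0.026 (adjusted p = 0.659 by edgeR), with a sign that turned under several alternatives. The log2-fold changes of ALDOC, ENO2, ALDOA and PGK1 were above all 17. GAPDH was above 14 of the 17, and TPI1, PGAM1, PKM and ENO1 were each above 11. The range of the reference genes thus contained 5 of the 9 lower glycolysis genes.

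**Figure D4:**
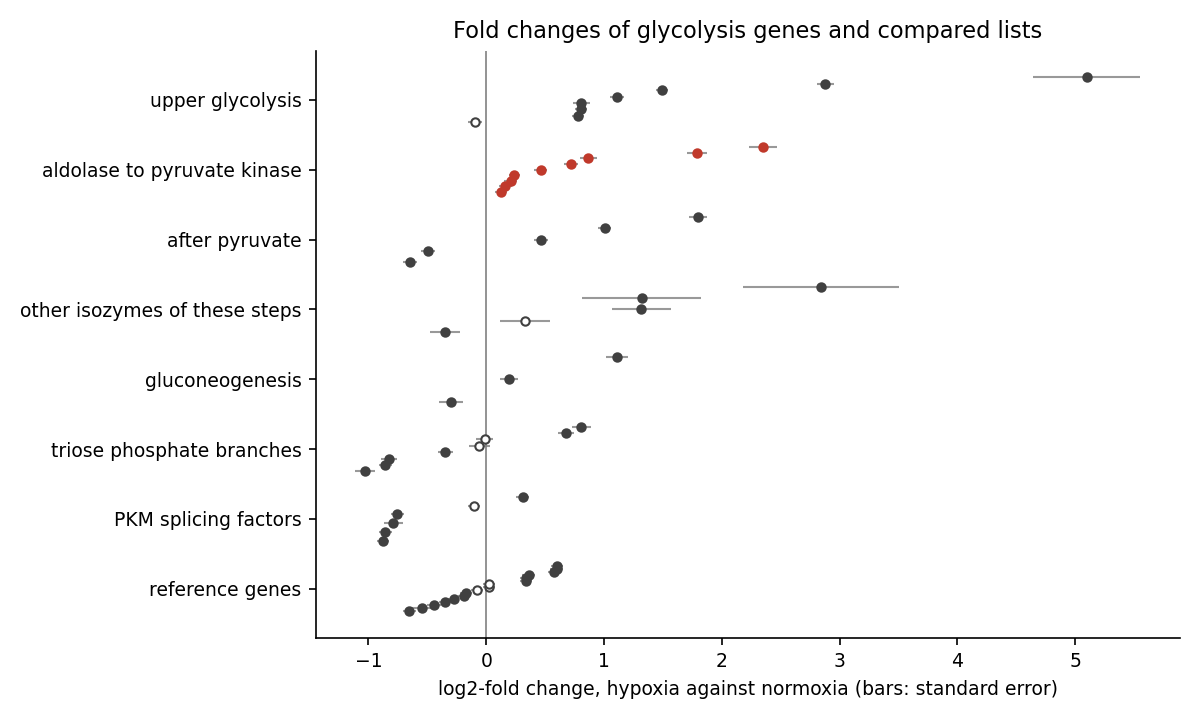
Log2-fold change (hypoxia against normoxia, bars show the SE) of each tested gene by list, with lower glycolysis in red and open circles for genes not called by edgeR. The 9 red points lie above 0, and the reference genes at the bottom, of which 1 is not drawn, lie on both sides of 0 and reach 0.60.

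Genes beside the 9 on the chromosome moved in both directions. Of the 18 nearest tested genes, 7 were higher, 8 lower and 3 not called, with a median log2-fold change of 0.11. These counts lay near the shares over all tested genes, of which 39.2% were called higher and 38.5% lower. GAPDH lay between the strongest contrasts: GAPDH-DT, a noncoding transcript that starts near GAPDH, had 132, 114 and 138 counts under hypoxia and 19, 20 and 14 under normoxia, a log2-fold change of 2.79 (SE 0.28, adjusted p = 6.3e-08 by edgeR). NOP2, on the other side, encodes a ribosomal RNA methyltransferase and fell by 2.39. SPAG5 beside ALDOC was at -1.15, TAF9B beside PGK1 at -1.81 and RRP12 beside PGAM1 at -2.15, while LRRC23 beside ENO2 was at 1.196. USP5 beside TPI1, a deubiquitinase gene and the most counted of the neighbours, was at -0.52. Both neighbours of PKM were higher, GRAMD2A at 2.37 and CELF6 at 2.35. CELF6 had 25, 29 and 18 counts under hypoxia and 1, 0 and 12 under normoxia, and its fitted log2-fold change without normoxia replicate 3 was 5.24, against normoxia libraries that were then at 1 and 0 counts. By RefSeq positions, GAPDH-DT did not overlap GAPDH. The strand used in counting is not given in the sources used here, so reads of GAPDH-DT that overlap any other gene cannot be told apart.

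**Figure D5:**
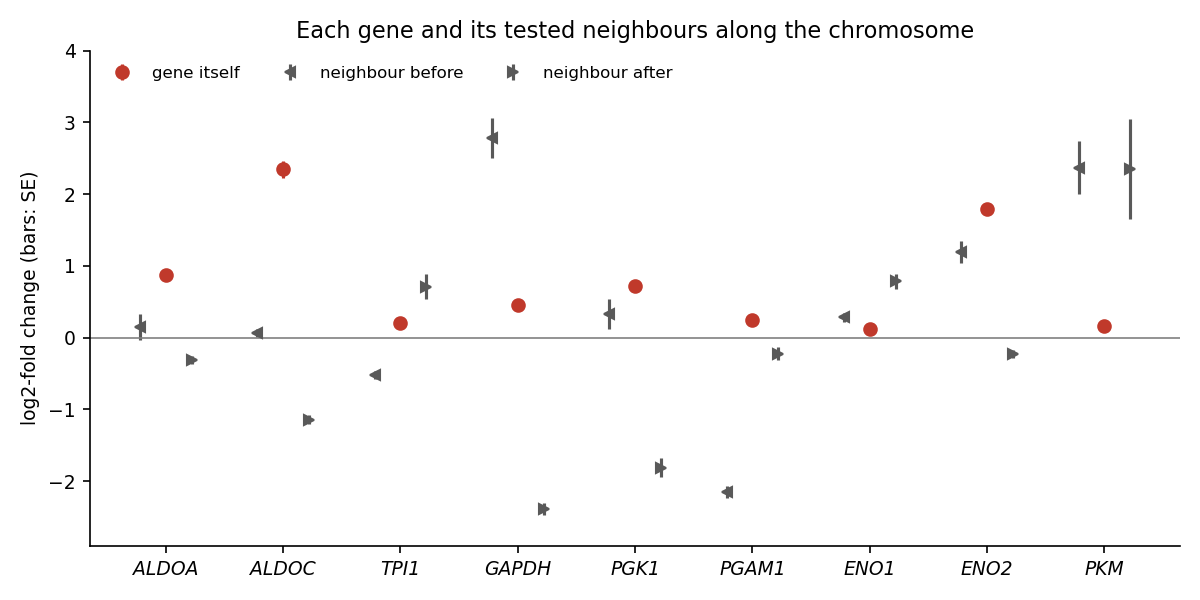
Log2-fold change of each lower glycolysis gene (red circles) and of the nearest tested gene before and after it by position (grey triangles), with bars for the SE. The red points are all above 0, and the grey points run from -2.39 to 2.79.

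The label of the conditions was checked with 10 hypoxia response genes outside glycolysis, and all 10 were higher, with a median log2-fold change of 2.92. EGLN3, a prolyl hydroxylase gene, rose by 6.69 and BNIP3, a mitophagy receptor gene, by 1.74, so that ALDOC and ENO2 exceeded the smallest change of this list and the other 7 lower glycolysis genes did not.

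Epithelial markers were present in every library. The 8 listed squamous or general epithelial genes summed to 956, 958 and 940.2 CPM (here scaled to library totals) under hypoxia and 701, 683 and 749.6 CPM under normoxia. CDH1, a general epithelial gene, was the most abundant, and 3 of 7 tested genes were called in each direction. KRT14, a defining basal keratin, had 0 or 1 count in every library, and KRT6A fell from 695, 537 and 356 counts to 18, 28 and 49. The 4 fibroblast markers summed to 21.4, 19.0 and 16.9 under hypoxia and 3.997, 3.003 and 5.503 under normoxia, mostly from COL1A1, while DCN had at most 4 counts and COL1A2 at most 9. The 3 endothelial markers summed to 1.56, 1.28 and 1.49 against 0.295, 0.304 and 0.734, most of it CDH5, and VWF had 0 counts in every normoxia library. Of 4 leukocyte markers, 3 were in the table and were at or near 0, with LYZ the most abundant at no more than 1 count. The fibroblast and endothelial sums moved with the condition, and their part in the lower glycolysis changes was not tested.

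Outside the lists above, the 5 tested genes whose profile over the 6 libraries lay closest to the median profile of the 9 were STX7, GLB1, MISP, MAN2B1 and TADA3. Closeness was the root mean square difference of log2 CPM centred on the normoxia mean, at 0.0146 for STX7 to 0.0304 for TADA3. Their log2-fold changes, between 0.44 and 0.46, follow from this choice and are given as a description. STX7 stood at 42.3, 42.7 and 45.4 CPM under hypoxia and 30.2, 31.3 and 33.5 CPM under normoxia.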

How the data were processed

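The authors deposited raw read counts for 21776 genes in 6 libraries and the FPKM of the same genes. The FPKM of 21775 genes follow from their counts, 1 whole-number length per gene and the library total, within 0.001%. The submitters' processing notes list the mouse builds GRCm38 and mm10, although the rows carry human gene symbols and Entrez numbers; the aligner, counting tool, annotation and use of strand are not given in the sources used here. Of the 11 annotation columns, only the Entrez numbers were used.

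The counts went into edgeR 4.0.16 under R 4.3.3 (glmQLFit and glmQLFTest, TMM, filterByExpr, condition as the only term, Benjamini-Hochberg at 0.05). The standard error is the log2-fold change divided by the square root of F. FPKM were tested with limma 3.58.1 on log2(FPKM + 1), leaving out genes that averaged below 1. Single values per library were compared by two-sided exact permutation (SciPy 1.17.1). Replicate pairs differed by more than sampling noise (chi-square per gene 5.11 to 11.5). Depth leaves genes with 3 or fewer counts per library without a measurable level. Alternatives were DESeq2 size factors, library totals, TMM without the 9 genes, the DESeq2 1.42.0 Wald test, other filters, a minimum log2-fold change of 1, a replicate block, omission of single libraries, and a pseudocount of 0.1 or no filter for FPKM. Sums of ALDOA with LOC112694756 and of PGAM1 with PGAM4, and the comparison with every reference gene, were chosen after seeing the data. On simulated counts of 14083 genes, edgeR found 21 of 50 genes changed 1.2-fold, 38 of 50 changed 1.5-fold and 45 of 50 changed 2-fold, with 6.17% false calls. Apart from these, only 48 tested genes were changed, by 4-fold, whereas 77.8% of tested genes were called in the real libraries. The simulated recovery and false-call rates may therefore not carry over to them.

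All 9 genes were named, and in each other list those with the largest increase, the largest decrease and the most counts, except that 1 reference gene is not reported here. HK2, LDHB, ACTB, PTBP1, HNRNPA1, ENO3, PKLR, GAPDHS, PGAM4, LOC112694756, SPAG5, TAF9B, RRP12, LRRC23, GRAMD2A, CELF6, CA9, KRT14 and the markers of other cell types were added to the text with their values known. The genes and lists were chosen with earlier results of these data known.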

Additional observations from a re-analysis of the deposited data

How the results depend on the processing

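All 9 lower glycolysis genes kept their direction in every alternative, and ALDOA, ALDOC, TPI1, GAPDH, PGK1, PGAM1 and ENO2 kept an adjusted p under 0.05 in each (edgeR or DESeq2). With a log2-fold change beyond 1 required, 2 of the 9 and 4338 of the 11090 genes differentially expressed by the adjusted p alone remained, and 4 of the 9 exceeded every reference gene. ENO1 was not called without a filter (0.083, adjusted p = 0.143 by edgeR) or with the replicate number as a block (0.12, adjusted p = 0.0911); on log2(FPKM + 1) limma called all 9 higher in every alternative. Leaving out each library gave 0.079 to 0.15 for ENO1, 0.11 to 0.20 for PKM and 7 to 9 of the 9 genes called higher. Requiring at least 10 counts in every library shifted the median of the shared genes by 0.077 and library totals by 0.047, against an ENO1 change of 0.12. ACTB turned to -0.015 without a filter, and ran from -0.0054 to 0.046 when each library was left out. With at least 10 counts in every library, 1 other isozyme gene was higher and 0 lower, and 0 gluconeogenesis genes were lower. Without a filter, 1 upper glycolysis gene was lower and 1 gluconeogenesis gene higher. Leaving out each library gave 0 to 1 other isozyme genes lower, 0 to 1 upper glycolysis genes lower, and 1 to 2 gluconeogenesis genes higher and 0 to 1 lower. The table held no mitochondrially encoded gene, so leaving these out removed nothing. The causes were not tested, except that the 10-count filter tests fewer genes (12665). Same-numbered libraries did not deviate together (correlations of 0.018, -0.069 and 0.0012 for replicates 1, 2 and 3), and not every library correlated best with its own number, so the numbers do not pair them; the replicate block gave 10875 calls and 1 gluconeogenesis gene higher, and, among the 9 genes and 44 others refitted singly, ended the calls of ENO1 and PCK2.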

Other observations

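Normoxia replicate 3 stood apart in genes of the hypoxia response as well as in lower glycolysis. It had the highest CPM of the 3 normoxia libraries for 8 of 10 hypoxia response genes and 7 of 8 tested upper glycolysis genes, against 37.2% of all tested genes. NDRG1, a gene strongly induced by low oxygen, was at 163, 140.4 and 409 CPM in normoxia replicates 1 to 3 and at 9007, 10512 and 10638 CPM in hypoxia replicates 1 to 3. CA9, a carbonic anhydrase gene, was at 32.2, 27.3 and 67.7 CPM in the same normoxia libraries, and EGLN3 at 5.86, 3.74 and 10.7 CPM. All remained far below the hypoxia libraries. Without normoxia replicate 3, ALDOC had a log2-fold change of 2.57 and ENO2 one of 1.91, the upper ends of their ranges when each library was left out.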
